A study of Mus musculus with 5 samples.

Results

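The axon guidance genes described here are 57 mouse genes that encode guidance ligands and their receptors, and their probe sets were found as those whose platform annotation gives exactly 1 gene symbol and whose symbol is in that list. They held 133 of the 45037 non-control probe sets of the array and covered 56 of the 57 genes. No probe set was matched to Ephb2 in this way. Signals were measured in 5 Neuro2A lines, derived from a mouse neuroblastoma whose cells can extend neurites, and each line was read on 1 Affymetrix array. By its design text the study examined how KDM7, a histone demethylase encoded by Kdm7a, affects gene expression. The control arm held the untransfected parental cells, cells transfected with an empty vector and cells transfected with a vector that knocks down EGFP, and the knockdown arm held 2 stable lines, each made with a different vector against KDM7. Neither the labels nor the design text name another treatment or time point, or tell whether a line is 1 clone or a pool. Each line has 1 array, so the spread within an arm holds differences between lines as well as between arrays.

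Growing axons are steered by secreted or membrane-bound cues that are read by receptors on the growth cone. Semaphorins act mainly through plexins, and most secreted class 3 semaphorins also need a neuropilin as the ligand-binding partner. Netrins attract axons through Dcc and repel them through Unc5 receptors, slits repel axons through Robo receptors, and ephrins are cell-bound ligands of the Eph receptor tyrosine kinases. Sympathetic neurons, the lineage from which neuroblastoma arises, depend on neuropilin and semaphorin signals for their placement in the embryo.

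Throughout, control values are listed in the order parental, empty vector, EGFP knockdown, and knockdown values in the order KDM7 line 1, line 2. By its probe set 1456150_at, Kdm7a itself had a signal of 487, 611 and 665 in the control lines and of 130 and 136 in the knockdown lines, lower in both lines labelled as knockdowns (log2 change -2.13, SE 0.20, limma's adjusted p 0.0468). Its brightest probe set, 1435867_at, had 660, 648 and 872 in the control lines and 231 and 143 in the knockdown lines (-1.99, SE 0.25, limma's adjusted p 0.128), and the dimmer 1427359_at had -1.86 (SE 0.40, limma's adjusted p 0.869). In all 3 the arms did not overlap, and with limma's plain variance model 0 probe sets of the array passed, Kdm7a included. Of 18 markers of neuroblastoma and sympathetic neurons, 17 were measured and 14 were above the filter level described below. The summed signal of the 17 measured genes was 62498 to 67702 in the control and 64292 to 70871 in the knockdown lines. Of the 14 above the filter level, both knockdown lines lay below all control lines for 4 and above for 2, against 10.2% and 12.7% of all genes. An unadjusted limma p under 0.05 was found for 5 of the 14, against 5.24% of all genes, with 0 past the adjusted test. The sympathetic transcription factor genes Gata3 and Isl1 had log2 changes of -1.68 (SE 0.46) and -1.62 (SE 0.55). Gata3 had 554, 224 and 585 in the control and 178 and 95.3 in the knockdown lines. Isl1 had 1493, 545 and 1998 in the control and 316 and 466 in the knockdown lines. For both, the control lines varied widely, and the empty vector line was the nearest to the knockdown lines. The log2 change was -0.56 (SE 0.22) for Chga, -0.40 (SE 0.14) for Elavl4 and 0.58 (SE 0.13) for Chgb. The part of these genes in the guidance gene results was not tested. The neurofilament genes Nefl and Nefm and the catecholamine enzyme gene Th were among those under the filter level. Of the markers of other cells, 0 of 5 measured endothelial, 1 of 5 Schwann and glial (Erbb3), 1 of 6 blood and immune (Csf1r) and 3 of 10 mesenchymal genes were above that level. The mesenchymal sum over the 10 measured genes was 289 to 2983 in the control and 224 to 343 in the knockdown lines. Its highest value came from Acta2, a smooth muscle actin gene, at 2733 in the parental line. Arrays read pooled RNA, so fewer cells of a type and less RNA per cell cannot be told apart.

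A gene was tested where at least 1 of its probe sets had a mean log2 signal over the 5 lines at or above the median of all probe sets, which is a signal of 40.5. By this rule 29 of the 56 measured genes were tested, or 51.8%, against 59.7% of all genes with a probe set of 1 symbol. In the semaphorin system 10 of 18 ligands and 9 of 10 receptors were tested. In the netrin system 0 of 2 ligands and 4 of 5 receptors were tested, in the slit system 2 of 3 ligands and 0 of 2 receptors, and in the ephrin system 4 of 8 ligands and 0 of 8 receptors. A low signal does not show that a gene is silent, since probe sets differ in how well they bind, and signals of different probe sets are not compared as levels here.

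**Figure D1:**
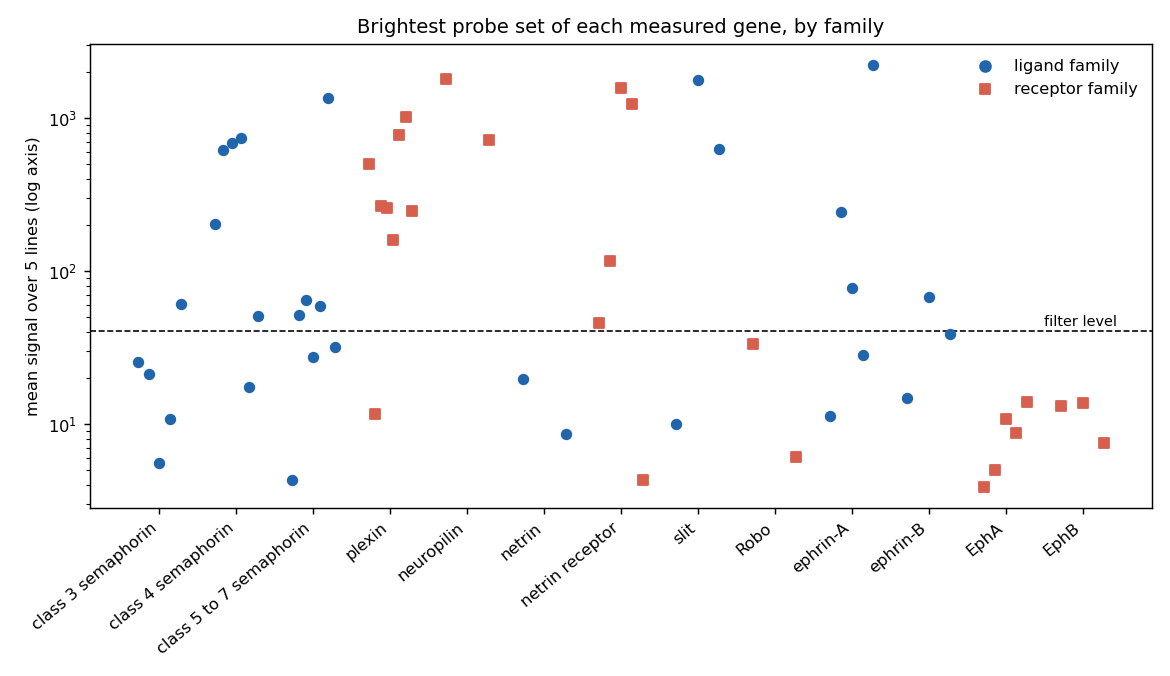
Mean signal over the 5 lines of the brightest probe set of each measured gene (vertical log axis), grouped by family, with circles for ligand families and squares for receptor families. The dashed line is the filter level of 40.5, and all 8 measured Eph receptors, both Robo genes and both netrins lie below it.

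The genes under the filter level had mean signals from 3.89 to 38.9 by their brightest probe set, and their log2 differences are not interpreted. Among semaphorin ligands these were Sema3a, Sema3c, Sema3d, Sema3e, Sema4f, Sema5a, Sema6b and Sema7a. Among receptors of that system it was Plxna2 alone, at a mean of 11.6. The netrin system gave Ntn1, Ntn4 and Unc5d, and the slit system Slit1, Robo1 and Robo2. The ephrin system gave Efna1, Efna4, Efnb1 and Efnb3, the last just under the level at 38.9, and the receptors Epha2, Epha3, Epha4, Epha5, Epha7, Ephb1, Ephb3 and Ephb4. Among the probe sets of these listed Eph receptors, the highest single value was 39.0 in KDM7 line 1. The highest values of the other lines were 18.7 in the parental, 29.8 in the empty vector, 19.4 in the EGFP knockdown line and 37.7 in KDM7 line 2. Epha10, an Eph receptor outside the list, had 44.7 in the parental line and 41.3 in KDM7 line 1, at a mean of 18.6.

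The 2 knockdown lines were compared with the 3 control lines, and the cause of any difference between these lines was not tested. None of the 29 tested genes, and none of their 51 tested probe sets, passed limma's test at an adjusted p under 0.05. The smallest adjusted p was 0.916, and among all features tested 0.00888% of probe sets passed, 2 of 22519. By the brightest tested probe set of each gene, the unadjusted limma p was under 0.05 for 4 genes (Nrp1, Dcc, Slit3 and Efna2). This was 13.8% of the tested members against 5.24% of all tested genes, and each of the 4 had the lower signal in the knockdown lines. Of the other tested probe sets, further ones of Nrp1 and Efna2 were also under 0.05 and lower. Probe sets 1450905_at of Plxnc1 and 1458140_at of Slit2 were under 0.05 and higher in the knockdown lines. With limma's plain variance model, which uses neither a trend nor robust weights, 0 members passed with a smallest adjusted p of 0.879, and 3 had an unadjusted p under 0.05. The median log2 change of the 29 genes, knockdown minus control, was -0.01, against 0.03 over all genes. Values for single genes below are therefore measurements that did not pass the test.

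Both knockdown lines lay outside the range of the control lines for 9 of the 29 genes by their representative probe set, the brightest tested one. They lay above all control lines for 5 genes, or 17.2%, against a background of 12.7% of 10867 genes, and below for 4 genes, or 13.8%, against 10.2%. The 5 were Sema4a, Sema4d, Sema4g, Sema6a and Plxnb2. The 4 were Nrp1, Dcc, Slit3 and Efna2. Leaving out a line can only add genes to these counts, and the number below grew to 9 without the parental line and to 8 without KDM7 line 1, against 17.8% and 18.9% of all genes. Median centring of the arrays moved the median of all genes by -0.11 and left 2 genes above, Sema4g and Sema6a, and 6 below, with Nrp2 and Sema4b added, against 5.24% and 17.9% of all genes.

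**Figure D2:**
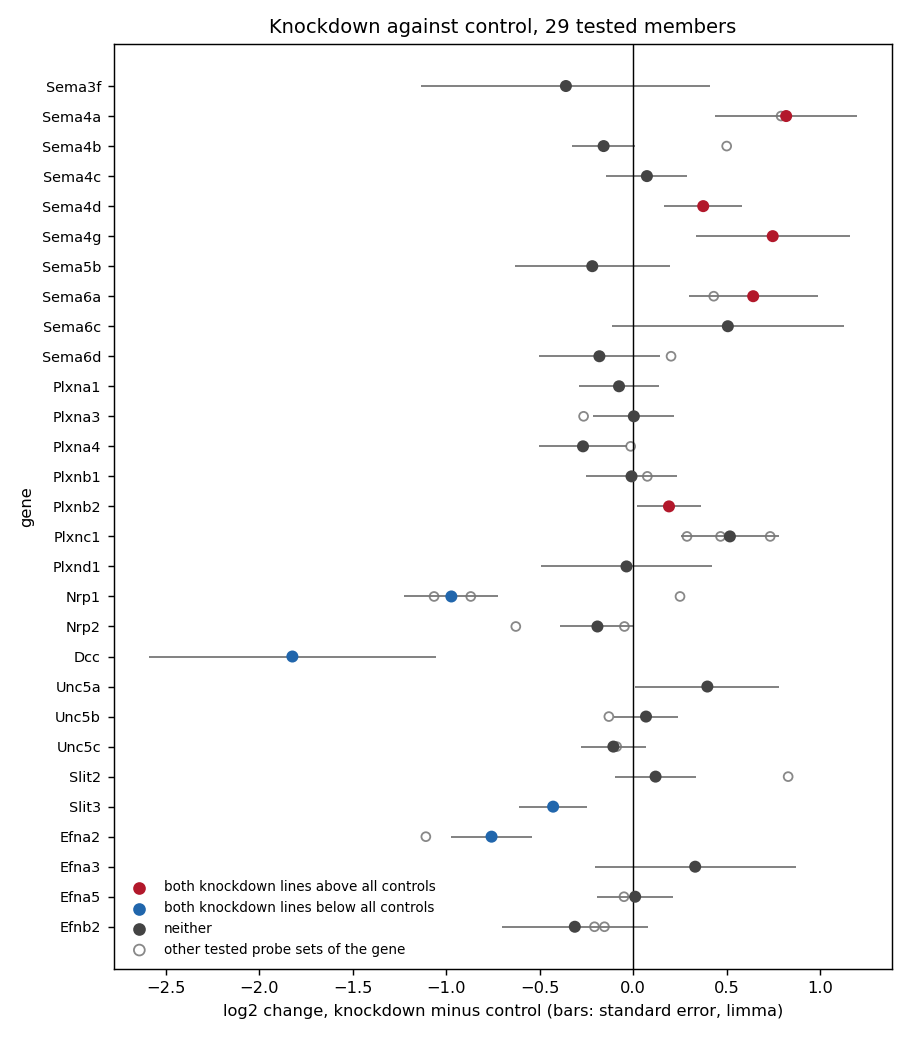
Log2 change, knockdown minus control, of the 29 tested genes by their representative probe set (filled points, bars are standard errors from limma), with the other tested probe sets of each gene as open circles. Filled points are coloured by whether both knockdown lines lay above, below or among the control lines, and 5 genes lie above and 4 below.

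Nrp1, the neuropilin that binds Sema3a and also serves as a co-receptor of vascular endothelial growth factor, had the lower signal in both knockdown lines by 3 of its 4 tested probe sets. Probe set 1448943_at had a signal of 3456, 1963 and 1970 in the control lines and of 1123 and 1303 in the knockdown lines. The arms did not overlap, and the parental line stood above the other 4. The control mean was 2463 ± 860 (SD, n = 3) and the knockdown mean 1213 ± 127 (SD, n = 2), 1.96-fold lower by the means of the log2 values. This log2 change of -0.97 (SE 0.25) had an adjusted p of 0.916 by limma. Probe sets 1448944_at and 1418084_at had log2 changes of -1.06 (SE 0.31) and -0.87 (SE 0.27), and their control and knockdown values did not overlap either. The fourth, the dimmer 1457198_at, went the other way at 0.25 (SE 0.28), with 98.3 to 160 in the control and 144 and 153 in the knockdown lines, which overlap. Without the parental line the change of 1448943_at was -0.70. Acta2 was likewise highest in the parental line, at 2733 against 39.3 to 105 in the other 4, and its part in the Nrp1 result was not tested.

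Nrp2, the neuropilin that binds Sema3f, overlapped between the arms. Its representative probe set 1435349_at had 665, 817 and 806 in the control lines and 785 and 563 in KDM7 lines 1 and 2 (log2 change -0.19, SE 0.20). Probe set 1456778_at had 416 in KDM7 line 1 and 194 in KDM7 line 2, against 396 to 465 in the control lines, so that line 2 alone was outside the control range.

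Plexins, the signalling receptors of semaphorins, were 7 of 8 tested, with log2 changes from -0.27 to 0.52 and a median of -0.01. Plxnc1, the receptor of Sema7a, had the largest of these by probe set 1423213_at, with 1212, 902 and 636 in the control lines and 1408 and 1141 in the knockdown lines (log2 change 0.52, SE 0.26, or 0.28 without the EGFP knockdown line). KDM7 line 2 was below the parental line there, so the arms overlapped. The second probe set, 1450905_at, did not overlap, with 849, 754 and 484 in the control lines and 1151 and 1098 in the knockdown lines (log2 change 0.73, SE 0.24), and the remaining 2 had 0.47 and 0.29. In all 4 probe sets the EGFP knockdown line was the lowest of the 5. Plxnb2, a receptor of class 4 semaphorins, had 638, 811 and 771 in the control lines and 862 and 819 in the knockdown lines. These arms were separated by a narrow gap, with a log2 change of 0.19 (SE 0.17). Plxnb1, the high-affinity receptor of Sema4d, had 141 to 194 in the control lines and 154 and 165 in the knockdown lines (-0.01, SE 0.24). Plxna1, Plxna3 and Plxna4, which pair with neuropilins for class 3 signals, had log2 changes of -0.08, 0.00 and -0.27, and that of Plxna4 was 0.04 without KDM7 line 2. Plxnd1, a receptor of Sema3e, was at 470 in the parental line and at 141 to 278 in the other 4, with a log2 change of -0.04 (SE 0.46), or 0.42 without the parental line.

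Class 4 semaphorins, which are membrane-bound ligands of plexin-B and other receptors, lay above all control lines in both knockdown lines for 3 of 5 tested genes and below for 0, where 12.7% and 10.2% of all genes did so. Their median log2 change was 0.37, and none passed the test. With median centring the median was 0.26, with Sema4g above and Sema4b below, against 5.24% and 17.9% of all genes. By probe set 1438934_x_at, Sema4a had 176, 258 and 95.9 in the control lines and 280 and 296 in the knockdown lines (log2 change 0.82, SE 0.38). The empty vector line was close to the knockdown lines, and without the EGFP knockdown line the change was 0.43. By its second probe set, 1448110_at, the empty vector line at 102 was above KDM7 lines 1 and 2 at 91.8 and 78.2. The suffix x_at marks a probe set with probes that can also match other transcripts.

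Sema4d, a ligand of Plxnb1 and of the immune receptor Cd72, had 533, 838 and 680 in the control lines and 855 and 888 in the knockdown lines (log2 change 0.37, SE 0.21). The gap to the empty vector line was small, and without the parental line the change was 0.21. Sema4g had 29.5, 45.4 and 52.0 in the control lines and 82.7 and 57.6 in KDM7 lines 1 and 2 (0.75, SE 0.41), with the parental value under the filter level. Sema4b and Sema4c overlapped between the arms, with log2 changes of -0.16 (SE 0.17) and 0.07 (SE 0.22), and the second probe set of Sema4b had 0.50 (SE 0.51).

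Of the class 5 to 7 semaphorins, which are bound to the membrane, 4 of 7 were tested. Sema6a, a ligand of Plxna2 and Plxna4, had 67.6, 43.4 and 53.5 in the control lines and 82.0 and 86.3 in the knockdown lines by probe set 1436458_at (log2 change 0.64, SE 0.35). The arms did not overlap there, but by probe set 1421414_a_at KDM7 line 1 at 39.8 lay among the control values of 30.9 to 60.8. Sema6d, a ligand of Plxna1, had 954, 1520 and 2043 in the control and 1030 and 1559 in the knockdown lines (-0.18, SE 0.32), within the control range. Its second probe set had 0.20 (SE 0.35), and the sign also turned without the EGFP knockdown line and without KDM7 line 1. Sema6c had 22.0, 59.0 and 105 in the control lines and 59.5 and 89.6 in the knockdown lines (0.51, SE 0.62), and its sign turned without the parental line. Sema5b had a log2 change of -0.22 (SE 0.42). Sema3f, which repels axons through Nrp2 and was the 1 secreted class 3 semaphorin tested, had 38.4, 38.6 and 202 in the control and 79.1 and 34.4 in the knockdown lines (-0.36, SE 0.77). Its value in the EGFP knockdown line was the highest of the 5, and the change was 0.44 without that line and 0.24 without KDM7 line 2. These values are from probe set 1438947_x_at, with the suffix described for Sema4a. The other probe sets of Sema3f, 1425840_a_at and 1420508_at, were under the filter level, and the EGFP knockdown line was not the highest in either.

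Dcc, the netrin receptor that mediates attraction, had 94.3, 70.2 and 66.7 in the control lines and 59.1 and 7.84 in KDM7 lines 1 and 2. Both knockdown values lay below all control lines, but the distance came from line 2, whose signal was under the filter level and was not shown to be above background. The log2 change was -1.82 (SE 0.77), or -0.36 without line 2. The other 2 probe sets of Dcc were under the filter level. Unc5b and Unc5c, receptors for netrin repulsion, varied little, with 1391 to 1837 in the control and 1500 and 1750 in the knockdown lines for Unc5b (0.07, SE 0.17) and 1055 to 1438 and 1182 and 1184 for Unc5c (-0.11, SE 0.17). The sign of Unc5b turned with median centring, without the EGFP knockdown line and without KDM7 line 1, and its second probe set had -0.13. Unc5a had 66.1, 167 and 105 in the control lines and 141 and 135 in the knockdown lines (0.40, SE 0.38), which overlap, and the change was 0.062 without the parental line.

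Slit3, a secreted repellent of the Robo receptors, had 690, 625 and 828 in the control lines and 500 and 556 in KDM7 lines 1 and 2. The arms did not overlap, and the control mean of 714 ± 104 (SD, n = 3) stood against 528 ± 39.5 (SD, n = 2), with a log2 change of -0.43 (SE 0.18). Slit2 had 2206, 1788 and 1302 in the control lines and 1753 and 2004 in the knockdown lines by probe set 1424659_at, which overlap (0.12, SE 0.22), and the change was -0.08 without the EGFP knockdown line. A dim second probe set of Slit2, 1458140_at, had 38.8 to 50.8 in the control and 71.7 and 81.5 in the knockdown lines (0.83, SE 0.35).

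Efna2, which encodes ephrin-A2, a cell-bound repellent known from the retinal map in the midbrain, was lower in both knockdown lines by both of its probe sets. Probe set 1444606_at had 293, 273 and 347 in the control lines and 159 and 202 in KDM7 lines 1 and 2. The control mean was 304 ± 38.6 (SD, n = 3) and the knockdown mean 180 ± 30.0 (SD, n = 2), 1.69-fold lower by the means of the log2 values, at -0.76 (SE 0.22). Probe set 1417521_at had 69.2, 81.6 and 71.0 in the control lines and 38.9 and 30.1 in the knockdown lines, the last 2 under the filter level (log2 change -1.11, SE 0.35). The parental line did not stand apart for Efna2, and without it the change of 1444606_at was -0.78.

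Efna5, encoding ephrin-A5, had 1696, 2299 and 2815 in the control lines and 2236 and 2242 in the knockdown lines. The log2 change was 0.01 (SE 0.20), a sign that turned with median centring, array weights and the mean over its probe sets and without the parental line. Efna3 had 36.5, 114 and 84.6 in the control and 60.9 and 130 in the knockdown lines (0.33, SE 0.54), with KDM7 line 2 the highest of the 5, and its sign turned without the parental line and without KDM7 line 2. Efnb2, a transmembrane ephrin with roles in axon and vessel guidance, had 95.6, 66.3 and 64.4 in the control lines and 43.9 and 81.2 in the knockdown lines (-0.31, SE 0.39), a sign that turned without KDM7 line 1. Its other 2 tested probe sets had -0.21 and -0.15, and by the last, 1449549_at, both knockdown lines lay just below all control lines.

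**Figure D3:**
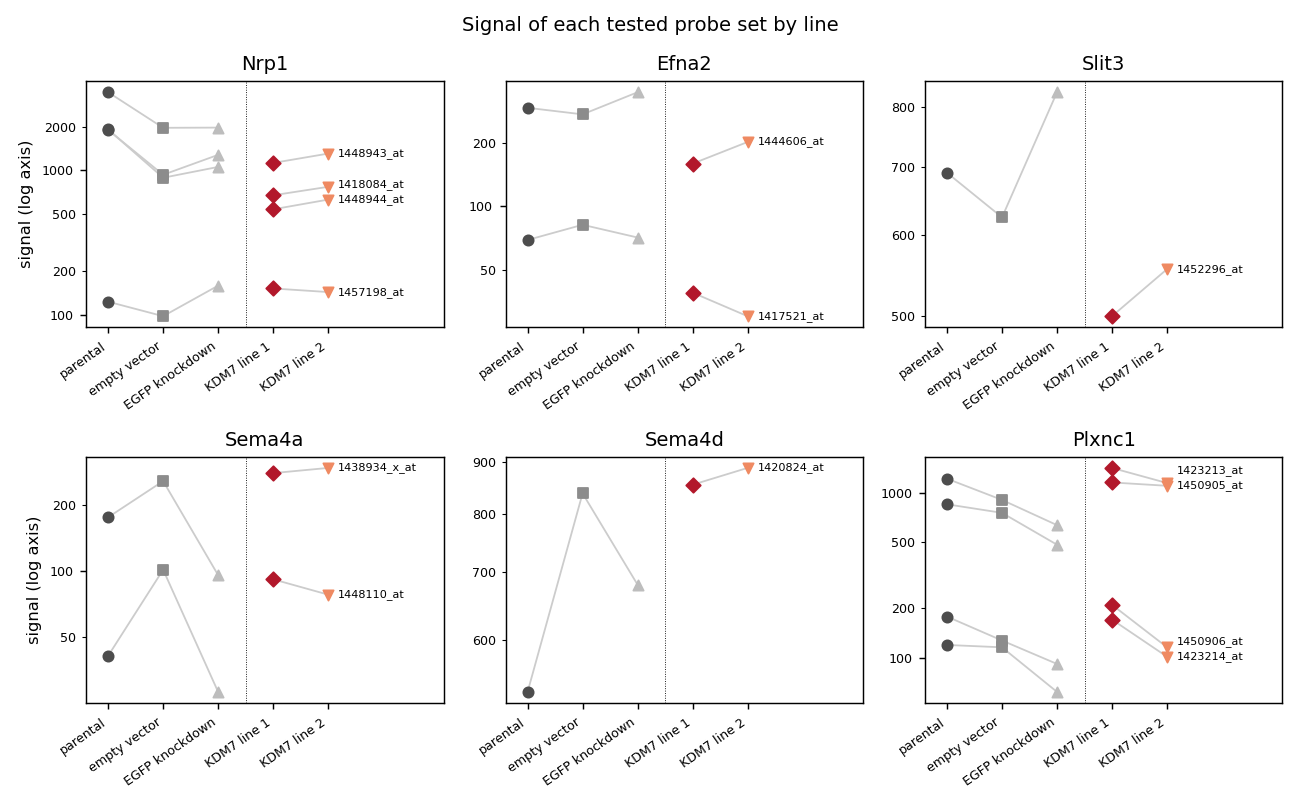
Signal (vertical log axis, a scale of its own in each panel) of every tested probe set of Nrp1, Efna2, Slit3, Sema4a, Sema4d and Plxnc1 in the 5 lines, with the 3 control lines left and the 2 knockdown lines right of the dotted line. Grey lines only join values of 1 probe set within an arm. For Nrp1, 3 probe sets are lower in the knockdown lines and the dimmest is not, while both probe sets of Efna2 are lower.

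For genes whose knockdown lines lay outside the control range with a log2 change of at least 0.5 in size, the promoter sequence is shown, so that it can be read beside their values. RefSeq promoter windows of build GRCm38.p6 were matched for 47 of the 56 measured genes. Of the 6 genes past this rule, 3 with a single listed start site are printed here. They are Nrp1 (chr8:128358823-128359072, plus strand), Efna2 (chr10:80179232-80179481, plus strand) and Sema4g (chr19:44989094-44989343, plus strand). Genes with several listed start sites were not printed. Sema6a and Dcc were left out for the chromosome they lie on, whatever their start sites, so the printed windows do not stand for all 6 genes. Each run is the 250 bases before the start site, 5′ to 3′, and capitals mark the GC box GGGCGG or its other strand CCGCCC, a motif that Sp1-family factors are known to bind.
Nrp1: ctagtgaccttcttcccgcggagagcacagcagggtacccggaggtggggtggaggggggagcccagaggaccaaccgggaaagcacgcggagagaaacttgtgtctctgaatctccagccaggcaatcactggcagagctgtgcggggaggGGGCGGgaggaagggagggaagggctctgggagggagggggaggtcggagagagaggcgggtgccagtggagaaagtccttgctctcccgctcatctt
Efna2: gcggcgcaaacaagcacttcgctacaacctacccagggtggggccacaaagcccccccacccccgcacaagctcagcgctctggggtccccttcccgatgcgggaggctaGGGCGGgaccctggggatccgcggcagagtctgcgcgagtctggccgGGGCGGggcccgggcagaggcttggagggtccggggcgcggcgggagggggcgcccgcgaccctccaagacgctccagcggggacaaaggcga
Sema4g: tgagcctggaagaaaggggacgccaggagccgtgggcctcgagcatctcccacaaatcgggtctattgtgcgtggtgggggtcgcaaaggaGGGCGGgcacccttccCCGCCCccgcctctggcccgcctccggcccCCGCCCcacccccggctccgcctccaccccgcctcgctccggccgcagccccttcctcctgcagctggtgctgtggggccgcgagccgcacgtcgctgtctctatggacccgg

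The Nrp1 window held 1 GC box, the Efna2 window 2 and the Sema4g window 3, and a GC box on either strand was in 32.7% of 32851 windows of the same length. None of the 3 held the letters TATAAA or CCAAT on either strand, which were in 12.4% and 33.8% of all windows. A match is a description of the letters and not a shown binding site. The windows held 11, 25 and 24 CpG dinucleotides in the same order, against a median of 6, and 64.4%, 73.6% and 73.2% G or C, against a median of 52.4%. Of all windows, 64.4% held fewer CpG dinucleotides than that of Nrp1, 89.3% fewer than that of Efna2 and 88.0% fewer than that of Sema4g. Nrp1 and Efna2 had the lower knockdown signals and Sema4g the higher ones.

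Across the 5 lines the members were spread as follows. The highest line was at least 2 times the lowest for 13 of 29 genes, or 16 below that, while 83.0% of all genes were below it. The median ratio of highest to lowest line was 1.94 for members and 1.43 for all genes, and the members were dimmer, with a median signal of 267 against 673, a difference whose part in the spread was not tested. At least 4 times was reached by 3 members, Dcc, Sema3f and Sema6c, against 2.99% of genes. The lowest line was the parental one for 11 members, among them Sema4d, Sema4g, Sema6c, Unc5a and Efna5, and over all genes it was the lowest for 31.1%. It was the highest for 6 members, against 24.6% of all genes. The empty vector line was the highest for 5 and the lowest for 2 members, against 19.1% and 19.5% of all genes. The EGFP knockdown line was the highest for 10 and the lowest for 6 members, against 22.2% and 20.5% of all genes. KDM7 line 1 was the highest for 3 and the lowest for 5 members, against 14.6% and 15.3% of all genes. KDM7 line 2 was the highest for 5 and the lowest for 5 members, against 19.5% and 13.7%.

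**Figure D4:**
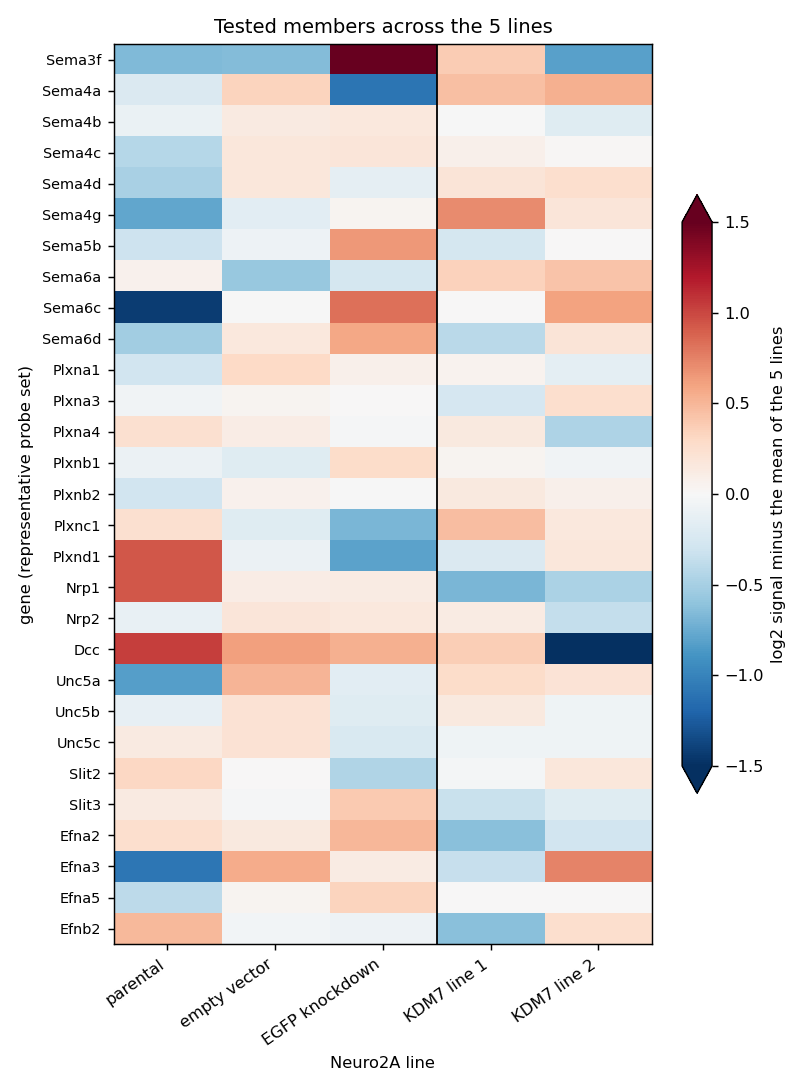
Log2 signal of each tested gene's representative probe set minus its mean over the 5 lines (colour, red above and blue below that mean; values beyond the scale take its end colours), with genes in rows and lines in columns. Nrp1 and Plxnd1 are highest in the parental line, Dcc is lowest in KDM7 line 2 and Sema3f is highest in the EGFP knockdown line.

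The 2 knockdown lines were compared with each other in a model with 3 groups, which takes the spread of the control lines for each of them. None of the 29 genes passed for line 2 against line 1, with a smallest adjusted p of 1.00 in limma, and 0.00444% of all tested probe sets passed, 1 of 22519. One member, Dcc, had an unadjusted p under 0.05, as had 1.51% of all tested probe sets. Its log2 difference of -2.92 (SE 0.66) rests on 1 array per line and on the line 2 signal of 7.84, which was not shown to be above background. The next largest differences were -1.20 (SE 1.22) for Sema3f, 1.09 (SE 0.80) for Efna3, 0.89 (SE 0.59) for Efnb2 and -0.61 (SE 0.36) for Plxna4. Both lines were compared with the same controls, so their values are given side by side only. Line 1 and line 2 had log2 changes of -1.08 and -0.87 for Nrp1, -0.93 and -0.59 for Efna2, -0.50 and -0.35 for Slit3 and -0.36 and -3.28 for Dcc. On the higher side they had 0.78 and 0.86 for Sema4a, 0.35 and 0.40 for Sema4d, 1.01 and 0.49 for Sema4g and 0.60 and 0.68 for Sema6a.

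Partners and effectors of these pathways outside the member list numbered 86, of which 82 were measured and 59 tested. None passed limma's test, with a smallest adjusted p of 0.916, and 5 had an unadjusted p under 0.05, where 5.24% of all genes had one. Both knockdown lines lay above all control lines for 6 and below for 7 of the 59, close to the 12.7% and 10.2% of all genes, and the median log2 change was -0.05. By group, where each count is small and is read against the same 12.7% and 10.2%, there were 2 above and 1 below of 9 netrin and Dcc partners, 3 and 2 of 19 semaphorin co-receptors and effectors, 0 and 2 of 9 slit effectors, 1 and 1 of 11 Eph effectors and 0 and 1 of 11 shared cytoskeletal effectors. Cntn2, an axonal adhesion molecule, had 117, 108 and 126 in the control lines and 56.1 and 31.1 in the knockdown lines (log2 change -1.48, SE 0.35). Farp2, a guanine nucleotide exchange factor in the semaphorin pathway, had 80.7, 81.8 and 42.6 in the control and 30.9 and 33.6 in the knockdown lines (-1.03, SE 0.43). Cntn2 was thus well separated between the arms, while the EGFP knockdown line of Farp2 was near the knockdown lines, and values of both in the knockdown lines reached under the filter level. The heparan sulphate proteoglycan genes Sdc3 and Gpc1 had log2 changes of -0.74 (SE 0.27) and -0.63 (SE 0.18). Gpc1 had 749, 1050 and 868 in the control lines and 577 and 561 in the knockdown lines, and Sdc3 was at 410 in the parental line, 234 and 266 in the other control lines and 164 and 188 in the knockdown lines. Ntn3, a netrin outside the member list, had 0.56 (SE 0.40) at signals of 29.4 to 55.2, with a mean of 41.6, just above the filter level.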

How the data were processed

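Signal intensities, on a linear scale and computed with MAS5 per the submitters' processing notes, were used as deposited. Every array had a 2% trimmed mean of 500.0, and no further scaling was applied. From 45101 probe sets 64 controls were removed, log2 was taken without an offset, and 22519 probe sets at or above the median mean log2 signal were tested. No detection calls were used. Symbols were those of the platform annotation (1 for 34945 probe sets, several for 932, none listed for 9160).

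Arms were compared with limma 3.58.1 (R 4.3.3, trended and robust eBayes) at 3 residual degrees of freedom, adjusting by Benjamini-Hochberg over all tested probe sets. The code was tested on simulated data. Trend and robust can give p-values that are too small here, so a fit without them was an alternative. Separate cultures are not stated, so p-values measure the spread between these 5 arrays, whose number limits the precision.

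Members, lists and the naming rule were chosen with earlier results of these data known. The rule gave all 5 values for each family's brightest member and its largest change, members outside the control range by at least 0.5 log2 units, members with a 4-fold range between lines, the 5 largest differences between knockdown lines, and the 5 largest changes of partners outside the control range. Plxnb1, Plxnb2, Plxnd1, Nrp2, Unc5a and Unc5c were added after their values were seen. Alternatives were 3 scalings, 2 filters, an offset of 32, plain eBayes, means over probe sets, array weights, a threshold of 0.10 and leaving out each line.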

Additional observations from a re-analysis of the deposited data

Results flagged for a closer look

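Plxna3, a plexin that pairs with neuropilins, had its knockdown lines on opposite sides of all control lines by its representative probe set only. Probe set 1420996_at had a signal of 258, 274 and 269 in the control lines (parental, empty vector, EGFP knockdown), 225 in KDM7 line 1 and 318 in KDM7 line 2. The log2 difference, line 2 minus line 1, was 0.50 (SE 0.35), and limma's adjusted p was 1.00. By the second probe set, 1420995_at, the difference was 0.20 (SE 0.62). Both knockdown lines, at 60.8 and 69.6, lay within the control range of 58.9 to 110 there.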

How the results depend on the processing

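No tested member passed limma's test at an adjusted p under 0.05 in any alternative. The number of genes above all control lines went from 5 of 29 to 2 with median centring, against 12.7% and 5.24% of all genes. It was 9 of 56 without the brightness filter, against 12.6% of all genes, and 2 of 18 with a filter at the 70th percentile, against 12.1%. With the mean over a gene's tested probe sets the number above stayed at 5 of 29, but Sema4a left the group and Slit2 joined it. The share of all genes was not computed for that setting. The number below went from 4 of 29 to 7 of 56 without the filter, against 10.2% and 9.28% of all genes. At the 70th percentile it was 3 of 18, against 10.4%. Over the fits that leave out 1 control line it was 4 to 9 of 29, against 16.8% to 17.8% of all genes. Nrp1, Slit3, Efna2 and Dcc were below all control lines in each of the 3 other scalings, and Dcc was not tested at the 70th percentile. Filters and left-out lines cannot bring such a gene back into the control range, so they do not test this. The median log2 change of the members, -0.0089, was -0.12 with median centring and lay between -0.13 and 0.061 with 1 line left out.

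Of the 18 genes named by rule, 9 kept their sign in every alternative and 9 did not. With median centring the log2 change was -0.041 for Unc5b and -0.10 for Efna5. With the mean over a gene's tested probe sets it was 0.011 for Sema6d, -0.031 for Unc5b and -0.019 for Efna5, and with array weights it was -0.043 for Efna5. With 1 line left out it ranged from -0.96 to 0.44 for Sema3f, from -0.11 to 1.02 for Sema6c, from -0.48 to 0.12 for Sema6d and from -0.58 to 0.038 for Plxna4. It ranged from -0.042 to 0.19 for Unc5b, from -0.084 to 0.30 for Slit2, from -0.21 to 0.88 for Efna3, from -0.18 to 0.18 for Efna5 and from -0.76 to 0.13 for Efnb2. Dcc kept its sign, at -0.36 to -3.28. The cause of these changes was not tested. No paired analysis was possible because the labels give no pairing between control and knockdown lines. Where a knockdown line is left out, the lone line is assumed to vary like the control lines. Signals near or under 40.5 limit what the dim genes can show.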
